A study of Danio rerio with 12 samples.

Results

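Hox genes encode homeodomain transcription factors that stand side by side on the chromosome in clusters. The zebrafish has 7 clusters that hold protein-coding genes, named hoxaa, hoxab, hoxba, hoxbb, hoxca, hoxcb and hoxda, and its Hox genes were chosen here by symbol: the letter of the cluster, the number of the paralogue group from 1 to 13, and the letter of the duplicate. This gave 49 genes of the 25011 in the expression table, each on a single row. RNA was read in 3 control and 3 morphant samples of haemogenic endothelial cells, the endothelial cells of the embryonic aorta that give rise to blood stem and progenitor cells, each of about 5000 cells. Cells of both groups came from the trunk at 36 hours post-fertilisation, from Tg(kdrl:mCherry/runx1:en-GFP) embryos, and were sorted as positive for mCherry, driven by the endothelial gene kdrl, and for GFP, driven by a runx1 enhancer. Morphants had been injected with a morpholino (mo), an antisense oligonucleotide, against dnmt3ba, a de novo DNA methyltransferase. The RNA libraries were grouped by their titles, MO for morphants and NC for controls. In the methylation samples of the series, the genotype labels are dnmt3ba knockdown for morphants and WT for controls. The replicates are described as biological. Whether the controls received an injection, and of what, is not stated in the labels, and an effect of injection itself cannot be told apart from one of the knockdown.

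Along the body axis, Hox genes of low paralogue number are known to be transcribed from anterior levels backwards and those of high number only posteriorly, so that the set of Hox genes a cell transcribes reflects its position. Retinoic acid and Cdx factors act upstream of the clusters, Polycomb and trithorax proteins keep them silent or open, and Hox proteins bind DNA together with Pbx and Meis cofactors. In blood, zebrafish cdx4 mutants are short of embryonic blood cells, and hoxb7a or hoxa9a can restore them. In the mouse, Hoxa3 maintains haemogenic endothelium and holds back Runx1, and Hoxa9 and Hoxb4 act in stem cell maintenance and expansion.

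Total estimated counts ranged from 24397076 to 25132656 per library. Libraries are compared in CPM, the counts scaled to library size with TMM factors that correct for composition, and genes in the deposited TPM, which are also scaled per length. dnmt3ba itself was read at 499, 789 and 442 CPM in controls 1, 2 and 3 and 405, 673 and 600.2 CPM in morphants 1, 2 and 3, and these overlap. Many morpholinos block splicing or translation and leave reads of the target in place, so these values do not check the labels. On the first principal component, with 37.8% of the variance, control 2 lay far from the remaining libraries. Of 26 endothelial markers 25 were in the table and none was at 0 in all libraries, and kdrl was read at 97.4, 184 and 74.5 CPM in the controls and 516, 88.2 and 519 CPM in the morphants, with morphant 2 inside the range of the controls. Genes of other tissues were read too: 20 of 20 skeletal muscle markers summed to 11390.4 to 75144 CPM in controls and 9842 to 21513 CPM in morphants. These sums overlap, and the direction of the single markers is given with the other tissues below.

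The first question was which Hox genes the control cells carried. Ordered by level per length, the top 4 were all of paralogue group 9. hoxa9b (NCBI gene ID 58048, and likewise for the IDs given with other genes) had 28.9 ± 2.84 TPM in controls (SD, n = 3), hoxd9a (30350) 26.3 ± 4.75 TPM, hoxc9a (58043) 24 ± 4.70 TPM and hoxa9a (58047) 22.3 ± 7.88 TPM. Genes of groups 3 and 8 came next, with hoxb3a (30339) at 21.0 ± 5.32 TPM and hoxb8a (30343) at 18.2 ± 2.77 TPM. Each of these overlapped its neighbour in the order, so the order within the top 6 is not beyond the spread of the controls. The only break between neighbours among the 49 lay between hoxd3a, at 6.82 ± 1.1 TPM, and hoxd11a, at 4.92 ± 0.526 TPM. In the controls 14 Hox genes had a mean of at least 10 TPM, 22 lay between 1 and 10 TPM and 13 below 1 TPM. hoxa13b, hoxb1a and hoxd13a were at 0 in all 3 controls. In the morphants hoxd9a came first at 54.2 ± 3.72 TPM, followed by hoxb8a at 44.9 ± 23.2 TPM and hoxc9a at 43.1 ± 5.51 TPM, and hoxa9b was at rank 7 with 26.4 ± 9.68 TPM.

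By paralogue group, group 9 held 31.8% of the summed Hox TPM of controls, group 3 17.5%, group 10 12% and group 8 11.7%. Group 1 held 2.60%, group 5 2.05%, group 2 0.916%, group 12 1.1% and group 13 0.623%. These were the 5 least abundant groups. By cluster, hoxba had the largest share at 24.2%, and hoxcb the smallest at 0.575%, with the other clusters between 6.87 and 18.4%.

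**Figure D1:**
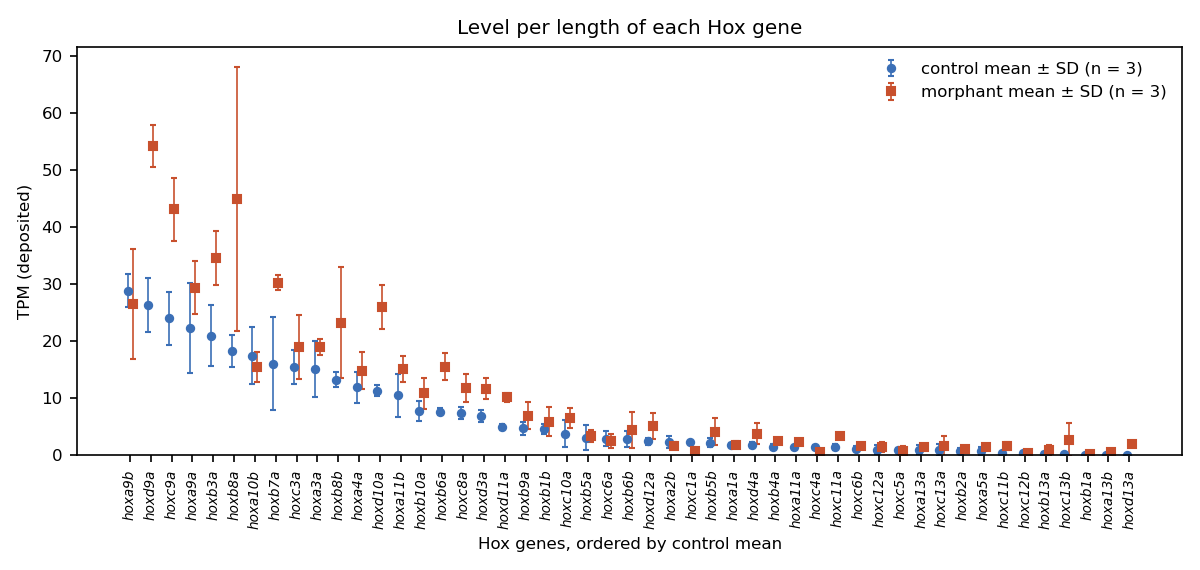
Deposited TPM of the 49 Hox genes (vertical axis), ordered by their control mean (horizontal axis). Blue circles are the mean ± SD of 3 controls and red squares that of 3 morphants; the 4 genes on the left belong to paralogue group 9, and hoxd9a is at 26.3 TPM in controls and 54.2 TPM in morphants.

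The level per length of a gene rests on the transcript length that the authors' values imply. For 7 of 43 Hox genes with enough reads this length differed between libraries by more than 1.1-fold, so their TPM are less certain than their counts. The difference was largest for hoxc6b (2.52-fold), hoxa1a (1.65-fold) and hoxb1b (1.47-fold). The 7 also include hoxa9b (1.18-fold), first in the order of controls, and hoxd3a (1.12-fold), beside the only break in that order. Whether the counting used strand is not stated, so reads of antisense transcripts within the clusters cannot be told apart from those of the Hox genes.

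The main comparison was of morphant with control cells. Summed over the 49 genes, Hox RNA was read at 409.9, 251 and 435 CPM in controls 1, 2 and 3 and at 598, 584 and 506 CPM in morphants 1, 2 and 3. Every morphant was above every control, and control 2 was the lowest library. The morphant mean was 1.54 times the control mean by CPM and 1.58 times by TPM. The higher values were not even over the clusters: the mean of summed CPM was 2.01 times the control mean for hoxda, 1.78 times for hoxba and 0.934 times for hoxab. A change in the number of cells of a type and a change in RNA per cell cannot be told apart in these bulk samples.

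By edgeR, the main test, no single Hox gene passed over all genes. Of the 49, 45 passed the filter on low counts and 4 did not, and edgeR's quasi-likelihood test with Benjamini-Hochberg adjustment over 18846 genes called 0 Hox genes at an adjusted p under 0.05, against 0.0531% of all genes called higher and 0.0106% called lower. At an unadjusted p under 0.05, 12 Hox genes were higher in morphants (26.7%, against 7.58% of all genes) and 1 was lower (2.22%, against 9.46%). DESeq2 called 6 higher (13.3%, against 3.16% of all genes) and 0 lower (against 3.35%), and limma-voom called 0. DESeq2 left 7 Hox genes without an adjusted p. The log2 fold change was above 0 in 38 of the 45 Hox genes (84.4%), against 47.6% of all genes tested, and the median was 0.55 beside -0.036. All 3 morphants were above all 3 controls in 18 Hox genes (40.0%, against 12.4% of all genes), and below in 2 (4.44%, against 11.9%).

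The filter let 2 of the 45 genes through by their morphant values alone, hoxc13b and hoxd13a. Both are among the 12 that were higher at an unadjusted p under 0.05, and hoxc13b is among the 6 that DESeq2 called. Among the 22 Hox genes that averaged at least 5 CPM over all 6 libraries, 20 had a log2 fold change above 0 (90.9%, against 51.1% of 12194 genes at that level). In 11 of these the groups did not overlap with morphants higher, against 15.6% of genes at that level. Control 2 was the lowest of the controls in 34 of the 45 Hox genes (75.6%), against 41.9% of all genes. Without control 2 the median log2 fold change was 0.33, and without control 2 and morphant 2, which lay nearest to the controls among the morphants on that component, it was 0.23. The medians over all genes in these fits were -0.012 and -0.018. The count of Hox genes with a log2 fold change above 0 was 34 of 46 without control 2. It was 28 of 44 without control 2 and morphant 2. In that last fit, edgeR called hoxd9a, hoxd10a, hoxd13a and hoxb8a higher, where 2.56% of all genes were called higher and 4.54% lower.

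**Figure D2:**
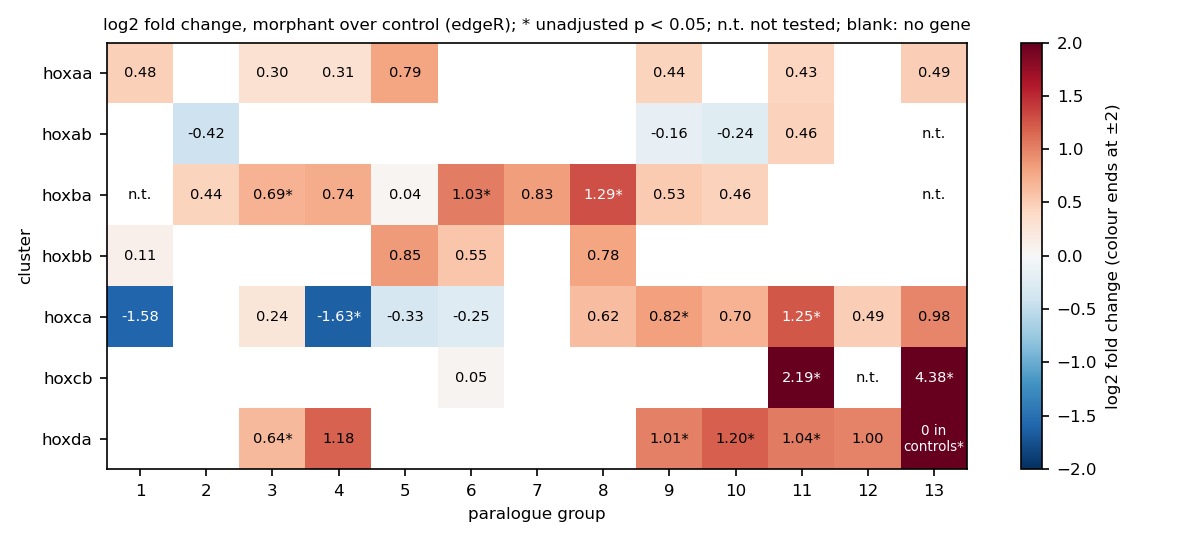
log2 fold change, morphant over control, of each Hox gene by cluster (rows) and paralogue group (columns), from edgeR with 3 libraries per group; red is higher in morphants, blue lower, and the colour ends at ±2. The hoxda row is red throughout, hoxca is blue or pale at groups 1 to 6 except for group 3 and red from group 8 on, and hoxab has 3 of 4 tested values below 0.

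The hoxda cluster had 7 of 7 log2 fold changes above 0 and the largest share of genes whose groups did not overlap. These were 6 of 7 in CPM and 5 of 7 in TPM, on which hoxd4a overlapped. Each count includes hoxd13a, which was at 0 in all controls, could differ only upwards and passed the filter by its morphant values alone. Without hoxd13a, 5 of 6 genes did not overlap in CPM, and the log2 fold changes of the 6 ran from 0.64 to 1.2. Of all genes tested, 47.6% were above 0, and the groups did not overlap with morphants higher in 12.4% by CPM and 11.7% by TPM. The summed level of hoxda was 59.8, 39.9 and 65.9 CPM in controls 1, 2 and 3 and 117, 113 and 104 CPM in morphants 1, 2 and 3, with no overlap. hoxd9a, of the group that is transcribed in the trunk and posterior body, was read at 26.7, 14.4 and 28.9 CPM in controls 1, 2 and 3 and 50.6, 43.5 and 46.7 CPM in morphants 1, 2 and 3 (log2 fold change 1.01, SE 0.28, edgeR unadjusted p = 0.0070, adjusted p = 0.17). hoxd10a (30404), a posterior gene that in the mouse patterns the hindlimb and its motor neurons, was read at 13.7, 10.5 and 12.4 CPM in controls 1, 2 and 3 and 28.6, 30.6 and 24.9 CPM in morphants 1, 2 and 3 (log2 fold change 1.2, SE 0.21, edgeR unadjusted p = 0.00056, adjusted p = 0.11). It had the lowest unadjusted p of the Hox genes, and its controls lay close together, as did its morphants. hoxd11a (30405), which patterns the forearm in the mouse, was read at 4.46, 3.77 and 5.30 CPM in controls 1, 2 and 3 and 9.61, 9.44 and 8.78 CPM in morphants 1, 2 and 3 (log2 fold change 1.04, SE 0.28, edgeR unadjusted p = 0.0065, adjusted p = 0.17). In these 3 genes every morphant was higher than every control, and DESeq2 called all 3 higher, with adjusted p of 0.026, 6.3e-05 and 0.013.

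hoxd13a (30407), the most posterior gene of the cluster, which acts in the distal fin and in the mouse digits, had 0 counts in each of the 3 controls and 37, 40 and 23 counts in morphants 1, 2 and 3. This is 1.45, 1.58 and 0.948 CPM, at least 32.9-fold higher than the 3 counts over the 3 controls that a count of 0 allows (edgeR unadjusted p = 0.00068, adjusted p = 0.11). These floors cover counting error only. hoxd13a passed the filter by its morphant values alone, which limits what its p-value shows. The level in morphants was low, near that of hoxa11a in the same cells (1.90 ± 0.549 and 2.37 ± 0.291 TPM, SD, n = 3). hoxd3a (30349), at the anterior end, was read at 12, 8.53 and 15.6 CPM in controls 1, 2 and 3 and 17.9, 21.1 and 17.2 CPM in morphants 1, 2 and 3 (log2 fold change 0.64, SE 0.28, edgeR unadjusted p = 0.0499, adjusted p = 0.29), and the groups did not overlap. hoxd4a ranged from 1.24 to 1.45 CPM in controls and from 1.46 to 4.43 CPM in morphants, and hoxd12a from 1.2 to 2.48 and from 1.94 to 4.82 CPM. Neither passed an unadjusted p of 0.05, and only hoxd12a overlapped between groups. hoxd4a had a log2 fold change of 1.18 (SE 0.53) and hoxd12a one of 1.0 (SE 0.52).

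**Figure D3:**
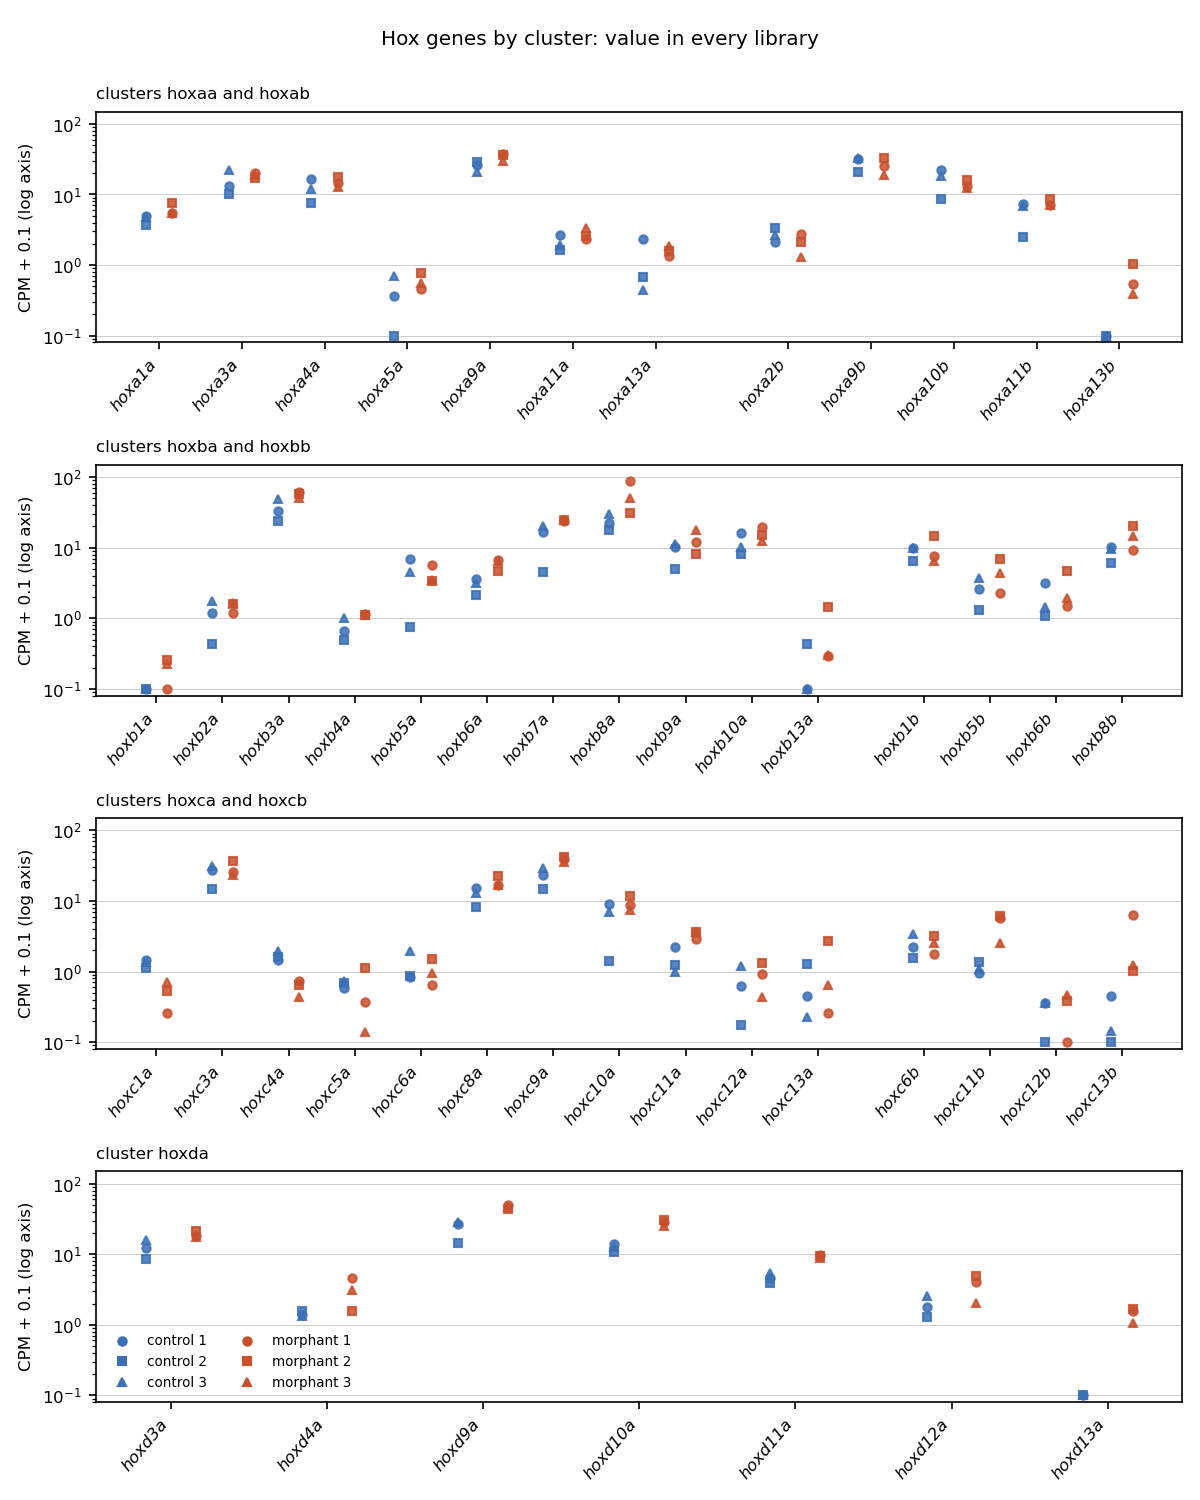
CPM plus 0.1 on a log axis for each of the 49 Hox genes, grouped by cluster and ordered by paralogue group; each point is a library, blue for control and red for morphant, and the 0.1 places a value of 0 at the foot of the axis. In the hoxda panel all 3 morphants lie above all 3 controls in 6 of 7 genes, and hoxd13a is at 0 in the controls.

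In the hoxba cluster all 9 tested genes had a log2 fold change above 0, against 47.6% of all genes tested. In 5 of the 11 hoxba genes the groups did not overlap, with morphants higher, against 12.4% of all genes tested. The summed level of hoxba was 110.3, 62.5 and 129.5 CPM in controls 1, 2 and 3 and 221, 148 and 168 CPM in morphants 1, 2 and 3. hoxb8a was read at 22.6, 17.6 and 29.5 CPM in controls 1, 2 and 3 and 89.1, 30.7 and 50.5 CPM in morphants 1, 2 and 3 (log2 fold change 1.29, SE 0.39, edgeR unadjusted p = 0.012, adjusted p = 0.20; DESeq2 adjusted p = 0.034). Morphant 1 was far above the other morphants, while morphant 2 was barely above control 3, and without morphant 1 the log2 fold change was 0.81. hoxb3a, whose group is known from hindbrain and pharyngeal patterning, was read at 33.1, 23.6 and 48.6 CPM in controls 1, 2 and 3 and 61.6, 57.9 and 50.2 CPM in morphants 1, 2 and 3 (log2 fold change 0.69, SE 0.27, edgeR unadjusted p = 0.037, adjusted p = 0.27). Morphant 3 was only slightly above control 3, and without control 2 and morphant 2 the log2 fold change was 0.46.

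hoxb6a (30341), a trunk gene, was read at 3.47, 2.07 and 3.08 CPM in the controls and 6.51, 4.62 and 6.43 CPM in the morphants (log2 fold change 1.03, SE 0.37, edgeR unadjusted p = 0.025, adjusted p = 0.24), with no overlap. hoxb7a (58044), one of the genes that restore blood in cdx4 mutants, was read at 16.7, 4.46 and 20 CPM in the controls and 24.2, 24.4 and 24.4 CPM in the morphants (log2 fold change 0.83, SE 0.48, edgeR adjusted p = 0.42). The morphants were nearly equal and all above the controls, but control 2 was far below the other controls, and without it the log2 fold change was 0.41. hoxb9a (30344) was read at 10.1, 4.97 and 11.1 CPM in the controls and 12, 7.98 and 17.7 CPM in the morphants, and hoxb10a (58056) at 15.9, 8.16 and 10.3 CPM in the controls and 19.8, 15.3 and 12.3 CPM in the morphants. In both of these posterior genes the groups overlapped, with log2 fold changes of 0.53 (SE 0.41) and 0.46 (SE 0.32). Of the less abundant members, hoxb4a, whose mouse counterpart expands blood stem cells in culture, had 0.62 ± 0.254 CPM in controls and 1.04 ± 0.0176 in morphants (SD, n = 3). hoxb5a had 3.94 ± 3.08 and 4.05 ± 1.32 CPM and hoxb2a 1.03 ± 0.672 and 1.39 ± 0.254 CPM. hoxb4a did not overlap between groups, and hoxb5a and hoxb2a did. The log2 fold change of hoxb5a was 0.043 (SE 0.74), and -0.46 without control 2. That of hoxb2a was -0.044 without control 2 and morphant 2.

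In the smaller hoxbb cluster, which has 4 genes, none separated the groups. hoxb8b (30420), the duplicate of hoxb8a, was read at 10.3, 5.95 and 9.49 CPM in the controls and 9.22, 20.5 and 14.5 CPM in the morphants (log2 fold change 0.78, SE 0.37, edgeR adjusted p = 0.32), with morphant 1 below control 1. hoxb1b, an early hindbrain gene, had 8.74 ± 2.01 CPM in controls and 9.42 ± 4.31 in morphants (SD, n = 3), hoxb5b 2.46 ± 1.24 and 4.43 ± 2.32, and hoxb6b 1.78 ± 1.1 and 2.60 ± 1.73 CPM. Morphant 2 was the highest library for all 4, and the summed level of the cluster was 25.7, 14.5 and 24.4 CPM in controls 1, 2 and 3 and 20.4, 46.3 and 27.0 CPM in morphants 1, 2 and 3.

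In the hoxca cluster the groups did not overlap in 3 of 11 genes with morphants higher, against 12.4% of all genes tested. Morphants were lower without overlap in 2 of the 11, against 11.9%. Of the hoxca genes of groups 1 to 6, hoxc1a, hoxc4a, hoxc5a and hoxc6a had log2 fold changes below 0 and hoxc3a above. The hoxca genes of groups 8 to 13 were all above 0 in the main test. hoxc4a (30345) was read at 1.34, 1.49 and 1.88 CPM in controls 1, 2 and 3 and 0.628, 0.553 and 0.33 CPM in morphants 1, 2 and 3 (log2 fold change -1.63, SE 0.59, edgeR unadjusted p = 0.026, adjusted p = 0.24). hoxc1a, the most anterior, had 1.34, 1.02 and 1.28 CPM in the controls and 0.157, 0.435 and 0.618 CPM in the morphants (log2 fold change -1.58, SE 0.71, edgeR unadjusted p = 0.058, adjusted p = 0.31). These were the only 2 of the 49 genes in which every morphant was below every control, and both were near 1 CPM. hoxc3a (30421), an abundant member of an anterior group, was read at 27.5, 14.8 and 30.9 CPM in the controls and 26.1, 37.3 and 23.4 CPM in the morphants (log2 fold change 0.24, SE 0.32, edgeR adjusted p = 0.73), and the groups overlapped. hoxc5a had 0.566 ± 0.0831 CPM in controls and 0.448 ± 0.515 in morphants, and hoxc6a 1.11 ± 0.629 and 0.933 ± 0.421 CPM. Both overlapped between groups, and like hoxc3a, hoxc12a and hoxc13a they changed sign in some alternative fits.

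Among the posterior genes of the cluster, hoxc9a was read at 23.3, 14.5 and 29.4 CPM in controls 1, 2 and 3 and 39.7, 42.6 and 36.0 CPM in morphants 1, 2 and 3 (log2 fold change 0.82, SE 0.27, edgeR unadjusted p = 0.018, adjusted p = 0.22; DESeq2 adjusted p = 0.083), with no overlap. hoxc8a (449648) was read at 15.3, 8.05 and 13 CPM in the controls and 16.9, 22.2 and 16.8 CPM in the morphants (log2 fold change 0.62, SE 0.29, edgeR adjusted p = 0.33), also with no overlap. Without control 2 and morphant 2 its log2 fold change was 0.26. hoxc11a (30403) was read at 2.12, 1.12 and 0.898 CPM in the controls and 2.79, 3.56 and 3.5 CPM in the morphants (log2 fold change 1.25, SE 0.49, edgeR unadjusted p = 0.036, adjusted p = 0.27), and all morphants were above all controls. hoxc10a, at 5.66 ± 3.90 and 9.18 ± 2.15 CPM (SD, n = 3), hoxc12a, at 0.568 ± 0.521 and 0.793 ± 0.448 CPM, and hoxc13a overlapped between groups. hoxc13a had a single high morphant: 0.157, 2.57 and 0.536 CPM in morphants 1, 2 and 3 and 0.347, 1.16 and 0.128 CPM in the controls.

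The hoxcb cluster had the lowest level and the largest ratio of the clusters, 2.77, from a summed 3.64 ± 0.948 CPM in controls and 10.1 ± 3.56 in morphants (SD, n = 3). hoxc11b (570925), the duplicate of hoxc11a, was read at 0.867, 1.27 and 0.983 CPM in controls 1, 2 and 3 and 5.69, 6.13 and 2.47 CPM in morphants 1, 2 and 3 (log2 fold change 2.19, SE 0.50, edgeR unadjusted p = 0.0026, adjusted p = 0.14; DESeq2 adjusted p = 0.0027). Morphant 3 was lower than the other morphants but still above every control. hoxc13b (58063) was read at 0.347, 0 and 0.0427 CPM in controls 1, 2 and 3 and 6.16, 0.909 and 1.15 CPM in morphants 1, 2 and 3 (log2 fold change 4.38, SE 1.35, edgeR unadjusted p = 0.013, adjusted p = 0.20; DESeq2 adjusted p = 0.013). hoxc13b passed the filter by its morphant values alone, which limits what its p-values show, and it is part of the hoxcb sum. Morphant 1 was far above the other morphants and control 1 above the other controls. The log2 fold change was 2.97 without morphant 1, with an edgeR unadjusted p of 0.088, and 6.79 without control 1. hoxc6b, at 2.30 ± 0.954 and 2.39 ± 0.679 CPM, did not separate the groups, and hoxc12b, with at most 9 counts in a library, did not pass the filter.

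In the clusters of the A family no gene passed an unadjusted p of 0.05 in the main test. All 7 hoxaa genes, against 47.6% of all genes tested, had a log2 fold change above 0, from 0.30 to 0.79. hoxa9a, the other gene that restores blood in cdx4 mutants, was read at 25.9, 29.0 and 20.9 CPM in controls 1, 2 and 3 and 37.6, 36.0 and 29.5 CPM in morphants 1, 2 and 3 (log2 fold change 0.44, SE 0.21, edgeR adjusted p = 0.32). The groups did not overlap, though morphant 3 was just above control 2. hoxa3a (58049), the zebrafish gene named after mouse Hoxa3, was read at 13, 9.90 and 22.3 CPM in the controls and 20.1, 16.9 and 18.7 CPM in the morphants (log2 fold change 0.30, SE 0.32, edgeR adjusted p = 0.66), and hoxa4a (58050) at 16.5, 7.44 and 11.9 CPM in the controls and 14.2, 17.6 and 12.6 CPM in the morphants (log2 fold change 0.31, SE 0.33, edgeR adjusted p = 0.66). Both overlapped between groups. hoxa1a, at 4.38 ± 0.685 and 6.11 ± 1.25 CPM (SD, n = 3), hoxa11a, at 1.97 ± 0.521 and 2.66 ± 0.562 CPM, hoxa13a, at 1.06 ± 1.04 and 1.48 ± 0.239 CPM, and hoxa5a, at 0.286 ± 0.3 and 0.493 ± 0.163 CPM, were less abundant. Of these, the groups did not overlap in hoxa1a alone. Without control 2 and morphant 2 the log2 fold changes of hoxa4a and hoxa5a were -0.078 and -0.088.

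By CPM, the hoxab cluster was the only one whose morphant mean lay below its control mean. Its summed level was 63.5, 34.7 and 60.1 CPM in controls 1, 2 and 3 and 48.1, 60.0 and 39.7 CPM in morphants 1, 2 and 3. The difference lay within the spread of the libraries. By TPM the means were nearly equal, at 59.1 ± 9.70 in controls and 59.2 ± 15.0 in morphants (SD, n = 3). hoxa9b was read at 32.1, 20.5 and 32.5 CPM in controls 1, 2 and 3 and 24.8, 32.6 and 18.9 CPM in morphants 1, 2 and 3 (log2 fold change -0.16, SE 0.28, edgeR adjusted p = 0.81), and hoxa10b (30391), whose human counterpart acts in blood progenitors, at 22.1, 8.49 and 18.2 CPM in the controls and 13.1, 16 and 12.2 CPM in the morphants (log2 fold change -0.24, SE 0.36, edgeR adjusted p = 0.77). In both genes control 2 was well below the other controls. Without control 2 and morphant 2, the log2 fold changes were -0.56 and -0.67. The edgeR unadjusted p were 0.041 and 0.025 in that fit, and the adjusted p 0.17 and 0.13. Of all genes in that fit, 14% were lower at an unadjusted p under 0.05. hoxa2b, which specifies neural crest of the second pharyngeal arch, had 2.62 ± 0.596 and 1.96 ± 0.738 CPM (SD, n = 3), and hoxa11b 5.49 ± 2.66 and 7.54 ± 0.796 CPM, both overlapping. hoxa13b had 0 counts in all 3 controls and 11, 24 and 7 counts in morphants 1, 2 and 3, at least 13.8-fold higher than 3 counts over the controls, and did not pass the filter.

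**Figure D4:**
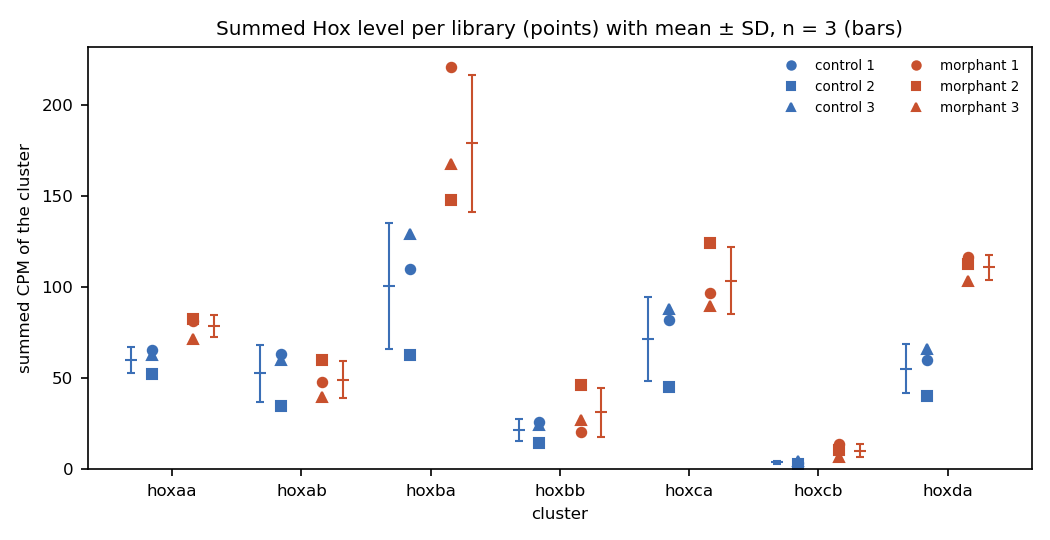
Summed CPM of the Hox genes of each cluster in each library (points) with the mean ± SD of 3 controls (blue) and 3 morphants (red). The groups are apart in hoxaa, hoxba, hoxca, hoxcb and hoxda and overlap in hoxab and hoxbb; control 2 is the lowest library in each cluster.

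Across clusters, members of the same paralogue group were compared next. The posterior groups 9 to 13 had 18 of 20 tested log2 fold changes above 0 (median 0.76), the central groups 4 to 8 had 13 of 16 (median 0.68) and the anterior groups 1 to 3 had 7 of 9 (median 0.30). Of all genes tested, 47.6% were above 0. The 12 genes higher at an edgeR unadjusted p under 0.05 were 8 of 20 tested posterior, 2 of 16 central and 2 of 9 anterior genes. Of all genes tested, 7.58% were higher at that p. The 8 include hoxc13b and hoxd13a, which entered the test by their morphant values alone. A difference between these classes was not tested. Of the summed Hox TPM, posterior genes held 51.2% in controls and 50.6% in morphants. Central genes held 27.8% in controls and 31.3% in morphants, and anterior genes 21.0% and 18.1%.

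Group 11 had all 5 members above 0, against 47.6% of all genes, and 3 of these at an unadjusted p under 0.05, against 7.58%. The group summed to 17.3, 10.2 and 15.7 CPM in controls 1, 2 and 3 and 27.4, 30.0 and 25.2 CPM in morphants 1, 2 and 3. Group 13, which marks the posterior end of the axis and the cloacal region, summed to 2.95, 2.07 and 0.513 CPM in controls 1, 2 and 3 and 9.65, 8.81 and 4.87 CPM in morphants 1, 2 and 3. Control 3 was lowest there, and all morphants were above all controls. The 3 genes with 0 counts in all controls were each read in at least 2 morphants, and 2 of the 3 are of group 13. Picked by their control values, these genes could differ only upwards, and the share of all genes with this pattern was not counted. For hoxb1a, the third, the morphant counts were 0, 4 and 3. hoxb13a was read at 0, 9 and 0 counts in the controls and 5, 34 and 5 in the morphants. Group 8, with hoxb8a, hoxb8b and hoxc8a, summed to 48.1, 31.6 and 51.9 CPM in controls 1, 2 and 3 and 115, 73.4 and 81.8 CPM in morphants 1, 2 and 3, without overlap. Groups 6, 7 and 9 did not overlap between morphants and controls either, and groups 1 to 5, 10 and 12 did.

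The teleost genome duplication left 11 pairs of a and b duplicates among the Hox genes, and their levels per length were compared within libraries. In 4 pairs the a copy was higher in all 6 libraries, hoxa13, hoxb6, hoxc6 and hoxc11, and in 2 pairs the b copy was, hoxa11 and hoxb1. For hoxc6 and hoxc11 this order depends on the implied lengths. By CPM, hoxc6b was above hoxc6a, at 2.30 ± 0.954 against 1.11 ± 0.629 in controls (SD, n = 3) and 2.39 ± 0.679 against 0.933 ± 0.421 in morphants. hoxc11b had 1.04 ± 0.207 CPM against 1.38 ± 0.652 for hoxc11a in controls, but 4.76 ± 1.99 against 3.28 ± 0.431 in morphants. hoxa11b had 10.5 ± 3.77 TPM in controls against 1.46 ± 0.178 for hoxa11a (SD, n = 3), and hoxb6a 7.60 ± 0.654 TPM against 2.86 ± 1.42 for hoxb6b. hoxb1b had 4.63 ± 0.893 TPM where hoxb1a was at 0. In the other 5 pairs neither copy was higher in all 6 libraries. hoxa9a and hoxa9b stood at 22.3 ± 7.88 and 28.9 ± 2.84 TPM in controls and 29.4 ± 4.66 and 26.4 ± 9.68 TPM in morphants, with the a copy higher in 3 of 6 libraries.

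Because the cells were sorted, the Hox levels were set beside markers of the cell types that the samples could hold. The endothelial markers, 25 of 26 in the table, summed to 6208 to 8712 CPM in controls and 10333 to 12496 CPM in morphants, also without overlap and also with control 2 the lowest. Of the 25, 24 had a log2 fold change above 0, with a median of 0.57 beside 0.55 for the Hox genes, and edgeR called 0 of them. At an edgeR unadjusted p under 0.05, 11 of the 25 were higher, against 7.58% of all genes, and 0 lower, against 9.46%. DESeq2 called 6 of the 25 higher, against 3.16% of all genes, and 0 lower, against 3.35%. As a share of that sum, Hox RNA was 5.03, 4.05 and 4.99% in controls 1, 2 and 3 and 5.78, 4.77 and 4.05% in morphants 1, 2 and 3, so the groups overlapped. For hoxda alone, picked after its values were seen, it was 0.733, 0.643 and 0.756% and 1.13, 0.918 and 0.829%, and the groups did not overlap. Whether the endothelial share of the RNA had a part in the Hox difference was not tested. Of 10 stem and progenitor cell regulators 9 were tested, with 3 log2 fold changes above 0 and 6 below (median -0.48). edgeR called 0 of them, with 2 higher and 5 lower at an unadjusted p under 0.05, against 7.58% and 9.46%. DESeq2 called 2 higher and 3 lower, against 3.16% and 3.35%. The 9 myeloid markers summed to 5128 to 11841 CPM in controls and 4519 to 14518 CPM in morphants, and these overlap.

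**Figure D5:**
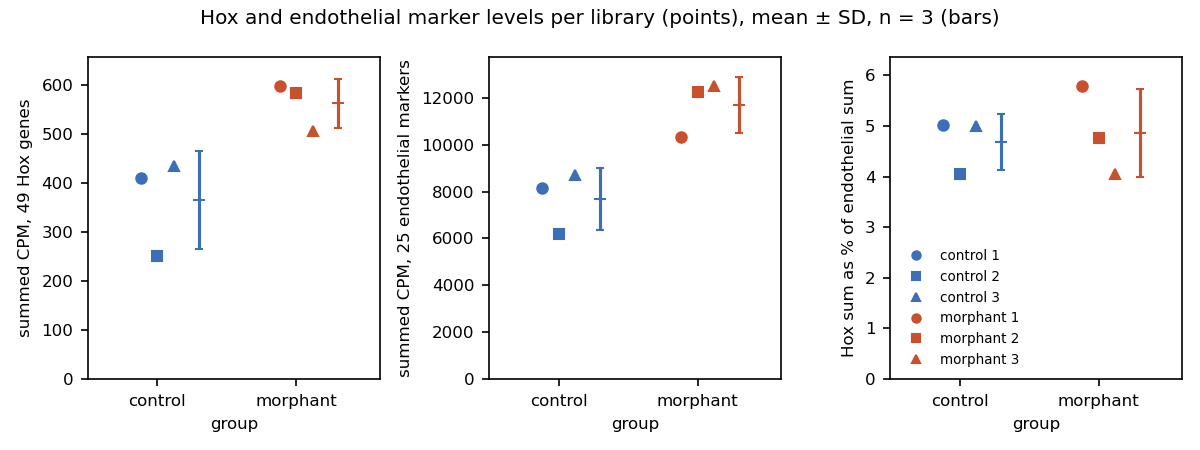
Summed CPM of the 49 Hox genes (left), summed CPM of 25 endothelial markers (middle) and the former as a percentage of the latter (right), per library (points) with mean ± SD of 3 libraries (bars). Both sums are higher in every morphant than in every control, while their ratio spans 4.05 to 5.03% in controls and 4.05 to 5.78% in morphants.

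Other tissues of the trunk and tail transcribe Hox genes too, and their markers were read in every library. The 20 skeletal muscle markers, with the sums given above, had 20 of 20 log2 fold changes below 0 (median -1.77), and edgeR called 0. At an edgeR unadjusted p under 0.05, 15 of the 20 were lower, against 9.46% of all genes. DESeq2 called 9 lower, against 3.35%. The 13 neural markers summed to 254 to 320.2 CPM in controls and 117 to 273 in morphants, with 13 of 13 log2 fold changes below 0 (median -0.84). The 14 markers of mesenchyme, sclerotome and fin fold summed to 787 to 879 and 311 to 419 CPM, and the 9 of tail bud and notochord to 2600.2 to 6608 and 156 to 1366 CPM. Only 3 of the 9 tail bud and notochord markers passed the filter on low counts, so their sum does not speak for the whole list. Of the markers of these last 3 lists, edgeR called 1, col1a2, a fibrillar collagen, lower (edgeR adjusted p = 0.039), against 0.0106% of all genes. DESeq2 called 2 of 13 tested neural, 3 of 12 mesenchyme and 1 of 3 tail bud markers lower, against 3.35% of all genes. It called 1 of the 12 mesenchyme markers higher, against 3.16% of all genes. No marker of the 3 lists was at 0 in all libraries. The 12 erythroid markers summed to 6239, 1662 and 1969 CPM in controls 1, 2 and 3 and 1617, 1235 and 504 CPM in morphants 1, 2 and 3, with 12 of 12 log2 fold changes below 0 and a median of -1.79. The 12 epidermis markers summed to 2056 to 4402 and 926 to 1851 CPM, with 8 of 12 below 0. Neither list overlapped between the groups in its sum. The 8 pronephros markers, of the embryonic kidney, varied between libraries in both groups: they summed to 538, 60.0 and 637 CPM in controls 1, 2 and 3 and 2774, 156 and 1311 CPM in morphants 1, 2 and 3. The part of any of these tissues in the Hox values was not tested.

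edgeR called no gene of the 4 lists of genes around the Hox system. DESeq2 called 10, where it called 3.16% of all genes higher and 3.35% lower, and the shares by list follow. None of 13 tested TALE cofactors, which bind DNA with Hox proteins, passed over all genes by edgeR, with 1 higher and 3 lower at an unadjusted p under 0.05. The 3 lower are 23.1%, against 9.46% of all genes, and the 1 higher 7.69%, against 7.58%. DESeq2 called 0 higher and 2 lower, 15.4% against 3.35%. The most abundant were meis1b, at 149 ± 30.5 CPM in controls and 137 ± 28.6 in morphants (SD, n = 3), and pbx4, at 52.7 ± 8.64 CPM in controls and 38.1 ± 12.3 in morphants. The median log2 fold change was -0.29, below 0 where that of the Hox genes was above. Chosen after their values were seen, meis1a was at 26.6 ± 9.05 CPM in controls and 9.07 ± 4.23 in morphants (log2 fold change -1.55, SE 0.41, edgeR adjusted p = 0.17) and pbx2 at 48.8 ± 11.3 CPM in controls and 25.8 ± 5.35 in morphants (log2 fold change -0.92, SE 0.25, edgeR adjusted p = 0.17), and these are the 2 that DESeq2 called lower.

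Of the caudal and retinoic acid genes 23 were tested and 0 called by edgeR, with 6 higher and 1 lower at an unadjusted p under 0.05, and 6 higher by DESeq2. Each 6 of 23 is 26.1%, against 7.58% of all genes at that unadjusted p and 3.16% by DESeq2. The 1 lower is 4.35%, against 9.46%. The most abundant was mafba, which acts upstream of group 3 Hox genes in the hindbrain, at 183 ± 24.8 CPM in controls and 315 ± 37.3 in morphants (log2 fold change 0.79, SE 0.19, edgeR adjusted p = 0.15). cyp26b1, which breaks down retinoic acid, was at 81.1 ± 21.7 CPM in controls and 185 ± 36.6 in morphants (log2 fold change 1.19, SE 0.25, edgeR adjusted p = 0.13). The other 4 that DESeq2 called, chosen after their values were seen, were dhrs3a, a retinaldehyde reductase, at 17.3 ± 3.13 CPM in controls and 60.0 ± 22.6 in morphants, crabp2b, a retinoic acid binding protein, at 1.87 ± 1.03 CPM in controls and 7.15 ± 4.10 in morphants, and the retinoic acid receptors raraa, at 24.1 ± 0.408 CPM in controls and 39.7 ± 7.39 in morphants, and rarga, at 25.3 ± 2.97 CPM in controls and 45.2 ± 11.1 in morphants. Named for their roles after their values were seen, aldh1a2, the enzyme that makes retinoic acid in the trunk, was at 6.03 ± 3.03 CPM in controls and 5.83 ± 1.56 in morphants, and cdx4 at 1.24 ± 0.245 CPM in controls and 0.996 ± 0.35 in morphants. cdx1a and cdx1b did not pass the filter.

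Among 35 tested Polycomb and trithorax genes 0 were called by edgeR, 2 were higher and 9 lower at an unadjusted p under 0.05, and DESeq2 called 2 lower. The 9 lower are 25.7%, against 9.46% of all genes, and the 2 higher 5.71%, against 7.58%. The 2 by DESeq2 are 5.71%, against 3.35%. The most abundant were cbx7a, a Polycomb protein, at 249 ± 160.3 CPM in controls and 363 ± 58.0 in morphants (SD, n = 3), and kdm6bb, a demethylase of the Polycomb mark, at 219 ± 52.0 CPM in controls and 152 ± 15.8 in morphants. ezh2, the methyltransferase that lays this mark, named for its role after its values were seen, was at 127 ± 36.8 CPM in controls and 113 ± 14.6 in morphants, a difference within the spread.

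The genes that flank the clusters were taken as the 3 nearest protein-coding genes on each side, with those between Hox genes, from RefSeq gene order in another assembly (GRCz12tu). Of 39 tested, edgeR called 0, with 3 higher and 4 lower at an unadjusted p under 0.05, and DESeq2 called 1 higher, rarga, which lies beside hoxca. The shares at an unadjusted p were 7.69% higher and 10.3% lower, close to the 7.58% and 9.46% of all genes. The 1 called by DESeq2 is 2.56%, against 3.16%. 19 had a log2 fold change above 0 and 20 below. The most abundant were atp5mc1, a subunit of the mitochondrial ATP synthase, at 557 ± 168 CPM in controls and 858 ± 214 in morphants (SD, n = 3), and cbx5, a heterochromatin protein, at 344 ± 53.7 CPM in controls and 308 ± 46.3 in morphants. Around hoxda, picked after its values were seen, the 5 tested neighbours agps, nfe2l2a, hnrnpa3, lnpa and atp5mc3a had log2 fold changes from -0.23 to 0.18. The hoxda genes other than hoxd13a ran from 0.64 to 1.2. Neighbours of the other clusters ranged more widely, from -0.81 to 2.42 at hoxaa, -0.16 to 0.74 at hoxab and -0.98 to 0.62 at hoxba. They ran from -0.94 to 0.44 at hoxbb, -0.71 to 0.84 at hoxca and -0.49 to 0.53 at hoxcb. The 2.42 at hoxaa is of evx1 (SE 1.69), which was barely read, at 0.242 ± 0.419 CPM in controls and 1.31 ± 1.15 in morphants. The next highest neighbour of hoxaa was tax1bp1a, at 0.55. The 3 neighbours higher at an unadjusted p under 0.05 lie beside hoxab, hoxba and hoxca, and the 4 lower beside hoxba, hoxbb and hoxca. The difference between neighbours and Hox genes was not tested.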

How the data were processed

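The expression table deposited by the authors lists, by its file headers, 25011 genes with estimated counts, FPKM and TPM in 6 RNA libraries, grouped by the labels into 3 controls and 3 morphants. HISAT2 2.2.1, HTSeq 0.12.4 and DESeq2 1.30.1 and the build GRCz11 are named, per the submitters' processing notes, but not what each did. Annotation and strand setting are not given in the sources, and per the file headers nothing says how counts came to be fractional. Of Hox genes, 3 had counts that were not all whole, and counts were rounded. Of all symbols, 19 stand on more than one row, none of them Hox. The series' methylation table holds authors' comparisons by position; no annotation of its build was used, so it was not analysed here.

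Genes were kept by edgeR 4.0.16's filterByExpr with the group (18846) and scaled by TMM (factors 0.932 to 1.11). The main test was edgeR's two-sided quasi-likelihood F-test of the group term in R 4.3.3 with Benjamini-Hochberg adjustment over all genes tested and a threshold of 0.05. The SE was derived from the F statistic. The fits were tested on simulated data. Alternatives were DESeq2 1.42.0, limma-voom (limma 3.58.1), scaling by RLE or by the upper quartile, no filter, at least 5 CPM in 3 libraries, an adjusted p under 0.10, a replicate block, leaving out each library, leaving out control 2 and morphant 2, and a gene-length offset (loess, span 0.5). The count of genes whose groups do not overlap was recomputed on TPM and without control 2 and morphant 2, both chosen after seeing the data.

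Hox genes that averaged at least 10 CPM, or had an unadjusted edgeR p under 0.05, are given library by library (24); others by mean, range or count. Of other lists, the 2 most abundant members are named where none was called. Members, lists and tests were chosen with earlier results of these data known.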

Additional observations from a re-analysis of the deposited data

How the results depend on the processing

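The count of Hox genes called over all genes, 0 by edgeR, was 6 by DESeq2 and 4 without control 2 and morphant 2, and stayed 0 in the other alternatives run, an adjusted p under 0.10 and each single library left out (0 in each) included. The count of all genes called, 12 by edgeR, was 1226 by DESeq2, 37 with no filter, 31 with the gene-length offset, 84 at an adjusted p under 0.10, 1359 without control 2 and morphant 2, and 0 to 77 over the single libraries left out. The 13 Hox genes at an unadjusted p under 0.05 became 6 with at least 5 CPM in 3 libraries, a filter that kept 22 Hox genes, and 8 to 14 over the libraries left out. The median log2 fold change of 0.55 was 0.23 without control 2 and morphant 2 and ran from 0.33 without control 2 to 0.81 without control 3. Among the genes of the cofactor, upstream, chromatin and neighbour lists, 0 were called by edgeR and 10 by DESeq2. Of all genes, DESeq2 called 3.16% higher and 3.35% lower. The 18 Hox genes whose morphants were all above their controls were 18 on TPM (against 11.7% of all genes), of which 15 were shared, with hoxa1a, hoxa9a and hoxd4a lost and hoxa11a, hoxa11b and hoxb8b gained. There were 19 without control 2 and morphant 2, where 28.8% of all genes were. The cause was not tested. Among the 24 Hox genes given library by library, the sign changed in 5 cases of a gene in a fit. These were hoxa4a, hoxa9b and hoxa10b in 1 fit each and hoxc3a in 2. Of the 21 other tested Hox genes, 10 genes changed sign in at least 1 alternative. Over the single libraries left out, hoxa10b ran from -0.55 to 0.045 (above 0 without control 1), hoxc3a from -0.011 (without control 2) to 0.46, and hoxa9b from -0.37 to 0.022 (above 0 without morphant 3). Without control 2 and morphant 2, hoxc3a was at -0.24 and hoxa4a at -0.078. hoxd9a, hoxd10a, hoxd11a and hoxb8a kept an unadjusted p under 0.05 in each of the 15 other fits, and hoxc11b in each of the 14 in which it passed the filter.

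Same-numbered libraries did not deviate together (correlations of 0.0338, -0.0944 and -0.159 across genes for numbers 1, 2 and 3), so the numbers were not taken to pair the samples. With the replicate number as a block, 0 genes in all were called, 0 Hox genes were called and 10 Hox genes had an unadjusted p under 0.05, with a median of 0.68. The 9 genes of groups 12 and 13 had 0 to 157 counts per library (median 10), which limits their precision.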
